A study of Homo sapiens with 15 samples.

Results

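The 6 genes ANKRD1, LDB3, SVIL, LMOD1, RGS5 and ABCC9 were followed by their gene names through the deposited expression tables of WI-38, human lung fibroblasts that stop dividing after long culture. They are 6 of the 4872 genes that appear in at least 1 of 4 tables, and all 6 were found. They are known from muscle fibres, smooth muscle and pericytes, and they were chosen from their measured values in these same tables. Their own differences are therefore given as a description, with no test. Each table holds only genes that the authors called changed, so a missing gene is not shown to be unchanged.

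The 15 RNA sequencing libraries form 5 groups of 3, and all of them received the transfection reagent lipo3000. The PD30 control was taken at PD30, given in the labels as a count of cell generations, with DMSO and no NC. The other groups were at PD45, described by the study as senescent. The GW8510 group received GW8510, a kinase inhibitor known to act on cyclin-dependent kinases, together with NC, read as a negative-control siRNA. The siSRC2 and siSRC4 groups received DMSO and an siRNA to SRC, a non-receptor tyrosine kinase, and are told apart by their titles. The PD45 control received DMSO and NC, and each of the 4 tables sets 1 group against it. The GW8510 group is the one not labelled with DMSO, so the compound and the lack of DMSO cannot be told apart. In the PD30 comparison, passage and NC cannot be told apart either. The labels give no dose or exposure time for GW8510, and do not state whether replicate libraries are separate cultures.

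ANKRD1 and LDB3 encode proteins of the sarcomere, the contractile unit of striated muscle. LMOD1 and SVIL encode proteins that act on actin filaments, the first of them abundant in smooth muscle. RGS5 and ABCC9 are used as markers of pericytes, the contractile cells that wrap small vessels. Fibroblasts hold actin stress fibres and can take on a contractile state in which part of the smooth muscle programme is expressed. Transcription factors of the SRF and TEAD families drive many such genes through short motifs, the CArG box and the MCAT motif.

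Motifs in the members' promoters are shown because 4 of the 6 genes are listed in the same direction at PD30. RefSeq gave 11 transcription starts for the 6 members (GRCh38.p14), and the 250 bases before each start were searched on both strands. The MCAT motif (CATTCC) was present before 3 of the 11 starts, of 3 members, and in 11.9% of 34941 promoters of the same length. A CArG box was present before 3 of the 11 starts, of 2 members, and in 1.17% of those promoters, and both LDB3 starts share 1 match. The windows below run from 15 bases before to 15 bases after each match on the strand of the gene, with the match in capitals, where GGAATG is MCAT read on the other strand.
ANKRD1, MCAT at 220 bases before the start, chr10:90921287-90921322, minus strand: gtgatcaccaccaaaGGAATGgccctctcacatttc
ANKRD1, MCAT at 128 bases before the start, chr10:90921195-90921230, minus strand: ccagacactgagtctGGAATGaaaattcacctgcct
LMOD1, MCAT at 126 bases before the start, chr1:201946654-201946689, minus strand: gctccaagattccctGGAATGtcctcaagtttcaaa
RGS5, MCAT at 205 bases before the first start, chr1:163321920-163321955, minus strand: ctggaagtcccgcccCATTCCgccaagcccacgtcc
LDB3, CArG box at 57 bases before the first start, chr10:86668439-86668478, plus strand: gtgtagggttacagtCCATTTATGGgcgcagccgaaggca
SVIL, CArG box at 33 bases before the second start, chr10:29634980-29635019, minus strand: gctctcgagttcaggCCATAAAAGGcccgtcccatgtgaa

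The LDB3 match also lies 110 bases before the second LDB3 start. No member had both motifs, and ABCC9 had neither in its window. The E-box (CANNTG) was found before 5 of the 11 starts and in 61.8% of all promoters, and the letters TATAAA before 0 of the 11 starts and in 10.8% of all promoters. The 4 motifs can overlap by their letters, and a match is a description of the sequence and not of binding. The whole ANKRD1 window of 250 bases is shown because ANKRD1 is the member with 2 MCAT matches and with the farthest ratio to the PD45 control.
ANKRD1, chr10:90921088-90921337, minus strand: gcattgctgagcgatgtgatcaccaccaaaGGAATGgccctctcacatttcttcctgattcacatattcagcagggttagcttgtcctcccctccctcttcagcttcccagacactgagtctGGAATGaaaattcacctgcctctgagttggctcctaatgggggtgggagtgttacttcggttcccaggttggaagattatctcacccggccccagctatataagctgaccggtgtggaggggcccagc

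SRC, the gene targeted by the siRNAs, had a deposited signal of 11.3 ± 0.580 with siSRC2 and 10.8 ± 1.16 with siSRC4, against 19.8 ± 0.766 in the PD45 control (SD, n = 3 each). The remaining SRC signal was 57.0% and 54.6% of the control. The signal is a normalized expression value whose unit is not named in the file headers, and read depth is unknown, so levels are compared between groups and never between genes. VIM, the intermediate filament of mesenchymal cells and 1 of 14 fibroblast markers, averaged 5407 ± 219 at PD30 and 3225 ± 105 in the PD45 control. The fibroblast markers did not all move this way, since 5 of the 14 were listed higher at PD30 and 1 lower. In cultures measured in bulk, fewer cells of a type and less RNA per cell cannot be told apart.

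The members fall mostly below the PD45 control. At PD30, 4 of the 6 genes were listed, all lower (ANKRD1, LDB3, SVIL and RGS5), where 7.07% of 18575 tested genes were listed lower and 8.24% higher. With GW8510 all 6 were listed, 4 lower and 2 higher, where 7.26% of 15574 tested genes were listed lower and 4.59% higher. With siSRC2, ANKRD1 and LDB3 were listed, both lower, beside 1.26% of 12549 tested genes listed lower and 1.38% higher. With siSRC4, LDB3 and RGS5 were listed lower and ANKRD1 higher, beside 4.86% of 14598 tested genes listed lower and 3.91% higher. Since the members were picked from these lists, nothing is read from the shares.

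Group and control libraries were fully separate for 4 of 4 listed members at PD30, 5 of 6 with GW8510, 1 of 2 with siSRC2 and 0 of 3 with siSRC4. Among all listed genes the share without overlap was 93.6% at PD30, 90.6% with GW8510, 90.6% with siSRC2 and 88.8% with siSRC4.

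**Figure D1:**
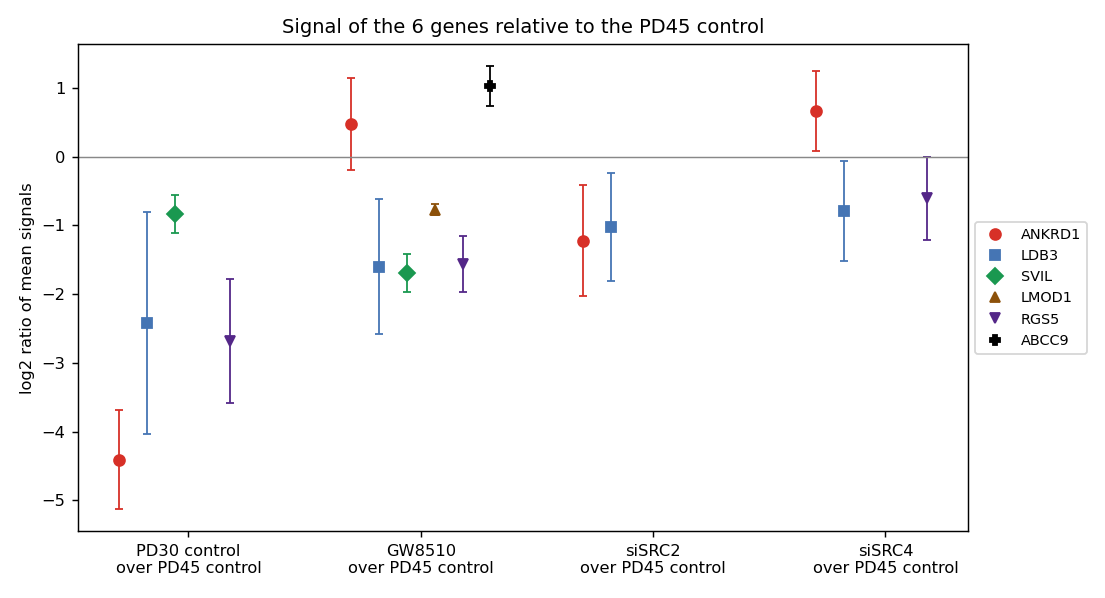
Log2 ratio of mean signals (vertical axis) of each member in the 4 groups over the PD45 control, where bars are the SD of the 3 log2 signals of both groups combined and the line at 0 is the PD45 control. ANKRD1 at PD30 lies lowest, at -4.41, and the points above 0 are ANKRD1 with GW8510 and siSRC4 and ABCC9 with GW8510.

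ANKRD1, or cardiac ankyrin repeat protein, binds titin in the sarcomere, enters the nucleus as a cofactor of transcription, and is widely used as a target gene of YAP and TEAD. Its signal was 0.23, 0.45 and 0.35 in the PD30 libraries, against 10.25, 6.67 and 4.93 in the PD45 control libraries. Every PD30 library lay far under every PD45 control library. The means of 0.343 ± 0.110 at PD30 and 7.28 ± 2.71 in the PD45 control differ 21.2-fold, a log2 ratio of -4.41. In the authors' deposited table the log2 fold change at PD30 is -4.39, with an adjusted p of 2.01e-31.

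The knockdown groups stood on opposite sides of the control for ANKRD1. With siSRC2 the libraries read 4.51, 2.92 and 1.95, a mean of 3.13 ± 1.29 and 2.33-fold below the PD45 control mean. The highest siSRC2 library was still under the lowest control library. With siSRC4 they read 13.33, 11.58 and 9.67, a mean of 11.5 ± 1.83 and 1.58 times the PD45 control mean. The lowest siSRC4 library lay inside the range of the control and the other 2 lay above it. Set beside the control library of the same number, siSRC4 was higher in 3 of 3 pairs. By number, each GW8510 library was likewise above its control library, and each siSRC2 library below it. In every PD45 group the ANKRD1 signal fell from the first library to the third. The log2 ratios to the PD45 control were -1.22 with siSRC2 and 0.66 with siSRC4. The authors' deposited table has log2 fold changes of -1.26 for siSRC2 and 0.63 for siSRC4, with adjusted p of 0.000171 and 0.0174. These names follow the library columns. The authors head the fold column beside the siSRC4 libraries siSRC2, and the one beside the siSRC2 libraries siSRC.

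With GW8510 the ANKRD1 signal was 12.89, 10.23 and 7.34, against 10.25, 6.67 and 4.93 in the PD45 control. The ranges overlapped, and 1 of the 3 GW8510 libraries was above every control library. The mean of 10.2 ± 2.78 was 1.39 times that of the control, while the authors' deposited table has a fold of 1.54 with an adjusted p of 0.0243. That fold and the authors' deposited table's 1.55 for siSRC4 are close to the 1.5 needed for a gene to be listed.

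From low to high, mean ANKRD1 signal ran PD30, siSRC2, PD45 control, GW8510, siSRC4. The libraries of the PD45 control and GW8510 overlapped, as did those of GW8510 and siSRC4. The gap between the means was 2.87 between GW8510 and the PD45 control, just over the larger SD of 2.78, and 1.38 between siSRC4 and GW8510, under that SD. The libraries of PD30 and siSRC2, and of siSRC2 and the PD45 control, did not overlap.

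**Figure D2:**
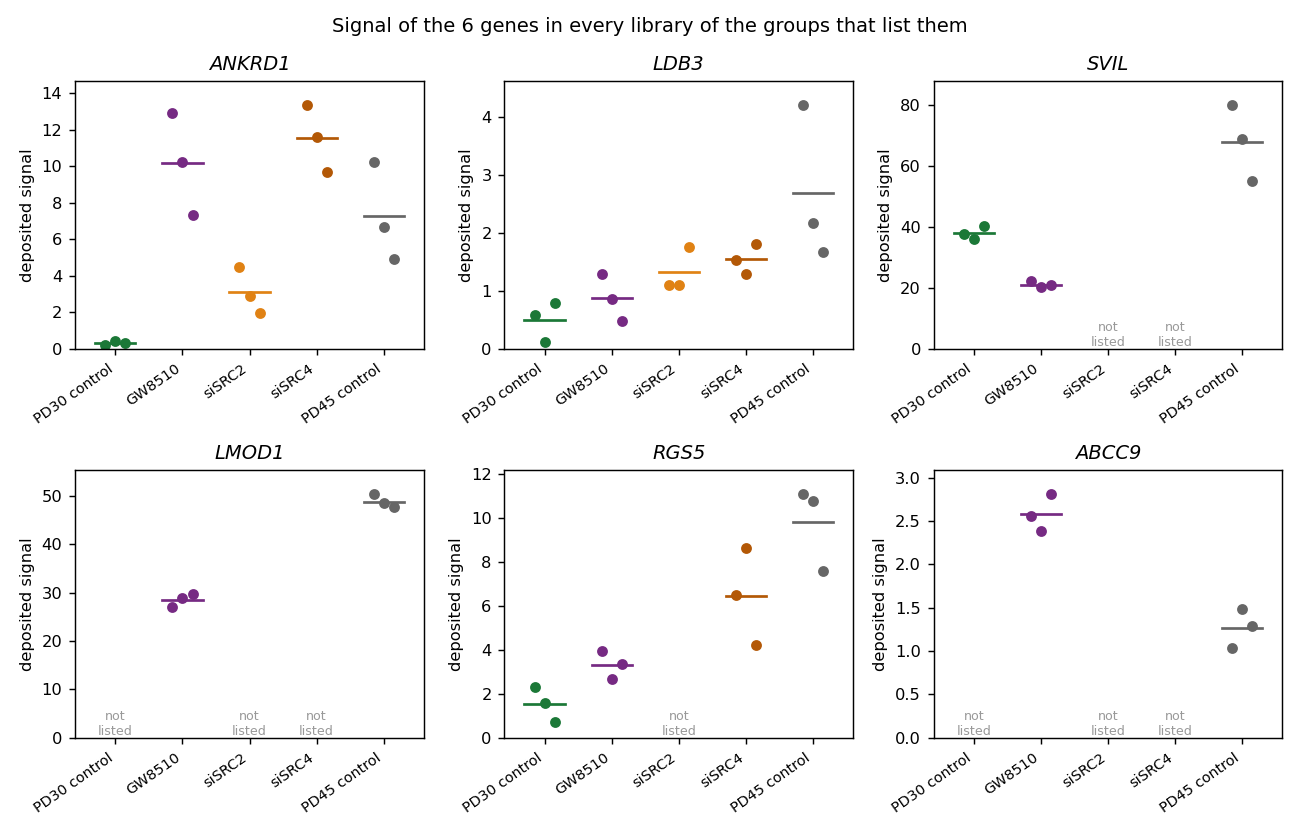
Deposited signal (vertical axis, starting at 0 and scaled per gene) of each member in every library of the groups whose table lists it, with points for libraries and a line for the mean of 3. ANKRD1 is near 0 at PD30 and spread widely in the PD45 control, LDB3 is highest in the PD45 control, and SVIL, LMOD1 and RGS5 lie below the control with GW8510 while ABCC9 lies above it.

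LDB3, also called ZASP or Cypher, is a PDZ and LIM domain protein that holds alpha-actinin at the Z-disc of striated muscle. It was listed in all 4 tables, always lower. Its signal was 0.58, 0.12 and 0.80 at PD30, and 1.30, 0.87 and 0.49 with GW8510. It was 1.1, 1.11 and 1.76 with siSRC2 and 1.54, 1.30 and 1.81 with siSRC4, against 4.20, 2.17 and 1.68 in the PD45 control. The first control library, at 4.20, stood well above the other 2. All PD30 and GW8510 libraries were under every control library, and with each siRNA 2 of 3 were. By library number, siSRC4 was below the control in 2 of 3 pairs.

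Mean LDB3 signal was 0.50 ± 0.347 at PD30, 0.887 ± 0.405 with GW8510, 1.32 ± 0.378 with siSRC2 and 1.55 ± 0.255 with siSRC4, against 2.68 ± 1.34 in the PD45 control. These means are 5.37-, 3.03-, 2.03- and 1.73-fold below the control. The authors' deposited table gives log2 fold changes of -2.47, -1.31, -0.97 and -0.75 in the same order, with adjusted p of 2.19e-11, 6.91e-05, 0.00283 and 0.0327. In that order of means, PD30 to PD45 control, every pair of neighbours overlapped. Without the first PD45 control library the log2 ratios of LDB3 were -1.12 with GW8510, -0.54 with siSRC2 and -0.31 with siSRC4.

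SVIL encodes supervillin, a membrane-bound relative of villin and gelsolin that binds actin and myosin. Its signal was 37.68, 36.08 and 40.34 at PD30 and 22.20, 20.15 and 20.92 with GW8510, against 79.76, 68.75 and 55.13 in the PD45 control. The 3 groups were fully separate, with GW8510 lowest, PD30 between and the PD45 control highest and most spread. The mean of 21.1 ± 1.04 with GW8510 was 3.22-fold below the 67.9 ± 12.3 of the PD45 control, and the mean of 38.0 ± 2.15 at PD30 was 1.79-fold below it. By p-value, SVIL was number 9 of 1845 genes in the authors' deposited table for GW8510, with a log2 fold change of -1.63 and an adjusted p of 3.3e-55. At PD30 the authors' deposited table has -0.83 with an adjusted p of 8.76e-17.

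SVIL is annotated on chromosome 10, minus strand, and 353 of its exonic bases (3.55%) lie over exons of SVIL-AS1 on the other strand. A transcribed pseudogene related to SVIL lies on the same chromosome. The strandedness of the libraries is not given in the sources used here, so part of the SVIL signal is uncertain by such reads.

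LMOD1, or leiomodin, starts new actin filaments in smooth muscle cells. Its signal with GW8510 was 27.11, 28.86 and 29.69, against 50.34, 48.47 and 47.58 in the PD45 control. Both groups were tight and they did not overlap. The mean of 28.6 ± 1.32 with GW8510 was 1.71-fold below the 48.8 ± 1.41 of the PD45 control. The authors' deposited table has a smaller log2 fold change, -0.65, against -0.77 from the signals, with an adjusted p of 1.05e-18. Over all genes listed for GW8510 the median of the authors' log2 fold change minus the log2 signal ratio was 0.12. LMOD1 was listed for GW8510 and in no other table, and 536 of its exonic bases (13.5%) are covered by an antisense gene, AL513217.1, from which its reads cannot be told apart without strand.

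RGS5 encodes a regulator of G-protein signalling that speeds the switching off of G-protein alpha subunits in pericytes and arterial smooth muscle. Its signal was 2.29, 1.58 and 0.72 at PD30, 3.94, 2.68 and 3.34 with GW8510, and 6.47, 8.63 and 4.22 with siSRC4, against 11.08, 10.75 and 7.58 in the PD45 control. Every PD30 and GW8510 library lay under every control library, while 1 siSRC4 library lay inside the range of the control. By library number, siSRC4 was below the control for RGS5 in 3 of 3 pairs. The means were 1.53 ± 0.786 at PD30, 3.32 ± 0.630 with GW8510 and 6.44 ± 2.21 with siSRC4, against 9.80 ± 1.93 in the PD45 control. They are 6.41-, 2.95- and 1.52-fold below it.

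The log2 fold changes of RGS5 in the authors' deposited table are -3.02 at PD30, -1.70 with GW8510 and -0.88 with siSRC4, with adjusted p of 3.88e-47, 9.95e-16 and 2.83e-05. In rising order PD30, GW8510 and siSRC4 were separate from each other, and siSRC4 overlapped the PD45 control. RGS5 shares 534 exonic bases (7.83%) with a second annotated locus of the same name and strand, so reads there could be counted for either.

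The gene next to RGS5 on chromosome 1, RGS4, encodes another regulator of the same family. RGS4 signal was 4.76, 6.15 and 5.23 at PD30 and 8.15, 11.11 and 7.86 with GW8510, against 64.58, 51.49 and 36.34 in the PD45 control. In neither group did a library come near the lowest control library. RGS4 was 9.44-fold lower at PD30 and 5.62-fold lower with GW8510. On the other side, NUF2, a kinetochore gene that lies on the strand opposite RGS5 with 0 shared exonic bases, averaged 4.89 ± 0.476 at PD30 and 0.66 ± 0.235 in the PD45 control, 7.41 times as high at PD30. Of the 21 RGS genes, 3 were listed lower and 2 higher at PD30, 4 lower and 1 higher with GW8510, 3 lower and 2 higher with siSRC4, and 0 with siSRC2. RGS5 itself is among the lower genes wherever any were listed. Of all tested genes, 7.07% were listed lower and 8.24% higher at PD30, 7.26% and 4.59% with GW8510, and 4.86% and 3.91% with siSRC4. RGS2, a regulator of Gq signalling, went the other way from RGS5 at PD30, with 15.3 ± 0.544 at PD30 and 5.83 ± 0.575 in the PD45 control.

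ABCC9 encodes SUR2, the regulatory subunit of an ATP-sensitive potassium channel that sets the tone of vascular smooth muscle and pericytes. Its signal with GW8510 was 2.56, 2.38 and 2.81, against 1.03, 1.48 and 1.29 in the PD45 control. All 3 GW8510 libraries lay above all 3 control libraries. The mean of 2.58 ± 0.216 with GW8510 was 2.04 times the 1.27 ± 0.226 of the PD45 control. The authors' deposited table has a log2 fold change of 1.001 and an adjusted p of 1.2e-07. ABCC9 was listed in no other table.

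KCNJ8, the neighbour of ABCC9 on chromosome 12, encodes Kir6.1, the pore subunit that SUR2 pairs with. Its signal with GW8510 was 4.31, 4.34 and 4.13, against 2.02, 1.87 and 2.11 in the PD45 control. The groups were separate, and the mean of 4.26 ± 0.114 with GW8510 was 2.13 times the 2.0 ± 0.121 of the PD45 control. The limma re-test, run only on genes that the authors had already listed, gave KCNJ8 an adjusted p of 0.00029. With GW8510, 95.4% of all genes in that re-test passed. Of the 14 genes of the ABCC family and its channel pores, 2 were higher with GW8510 (ABCC9 and KCNJ8) and 2 lower (ABCC3 and ABCC4, both exporters of organic anions). At PD30, 2 of the 14 were higher (ABCC1 and ABCC3) and 0 lower, and with siSRC4 only ABCC4 was listed, lower. Of all tested genes, 4.59% were listed higher and 7.26% lower with GW8510, and 8.24% and 7.07% at PD30. With siSRC4, 4.86% of all tested genes were listed lower.

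Of the 12 nearest protein-coding neighbours of the 6 members, 4 were listed in any table. They are RGS4, NUF2, KCNJ8 and JCAD, a junction-associated gene beside SVIL that averaged 31.6 ± 0.667 at PD30 and 61.3 ± 3.47 in the PD45 control. For scale, 4872 genes were listed in any table, and 18575 were tested at PD30, the most of any comparison. Nothing is read from the count of listed neighbours.

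**Figure D3:**
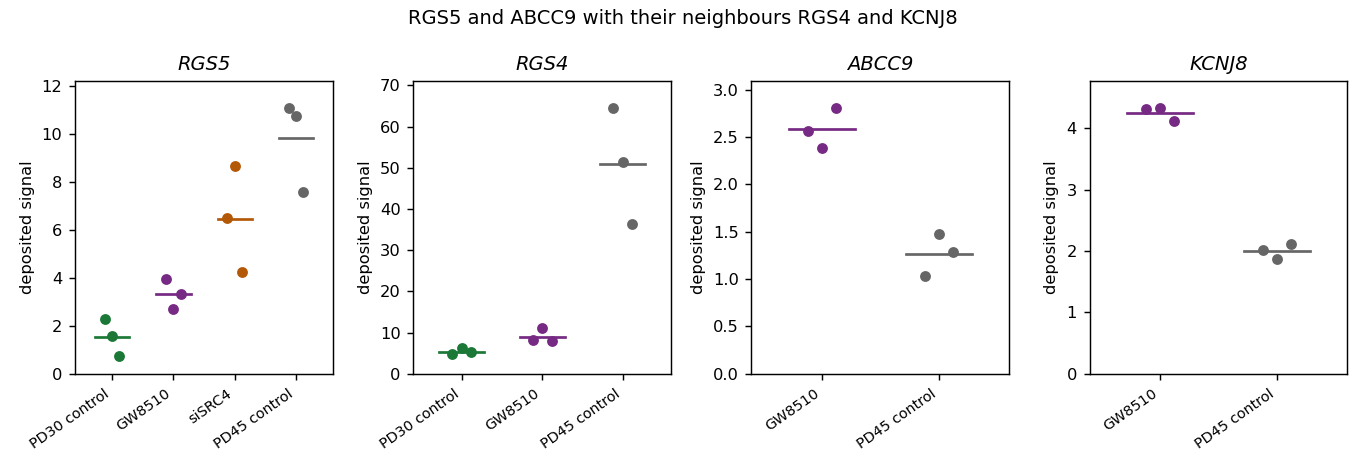
Deposited signal (vertical axis from 0) of RGS5, RGS4, ABCC9 and KCNJ8 in every library of the groups that list them, with points for libraries and a line for the mean of 3. RGS4 lies at 4.76 to 6.15 at PD30 and 36.34 to 64.58 in the PD45 control, and KCNJ8 lies above the PD45 control with GW8510 as ABCC9 does.

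The wider muscle and pericyte programmes were read from lists of 30 smooth muscle contractile genes, 53 striated muscle genes and 25 pericyte markers, 108 distinct genes with the members and 102 without. At PD30, 16 of the 102 non-member genes were listed lower (15.7%) and 6 higher (5.88%), beside 7.07% and 8.24% of all tested genes. With GW8510, 10 were lower (9.80%) and 2 higher (1.96%), beside 7.26% and 4.59% of all tested genes. With siSRC2, 3 were lower (2.94%) and 1 higher (0.98%), beside 1.26% and 1.38%. With siSRC4, 4 were lower (3.92%) and 3 higher (2.94%), beside the 4.86% and 3.91% of all tested genes. The list shares are of all 102 genes, whether or not the authors tested them. They can therefore run low beside the shares of tested genes. The libraries did not overlap for 22 of the 22 listed at PD30, 11 of 12 with GW8510, 4 of 4 with siSRC2 and 5 of 7 with siSRC4. Among all listed genes the shares without overlap were 93.6%, 90.6%, 90.6% and 88.8% in the same order, so nothing is read from these counts.

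In the limma re-test, limited to listed genes whose mean signal is at least 1, 15 of 15 such list genes passed at PD30, 9 of 9 with GW8510, 2 of 2 with siSRC2 and 4 of 5 with siSRC4. Among all listed genes the share that passed was 97.3% at PD30, 95.4% with GW8510, 95.5% with siSRC2 and 93.7% with siSRC4.

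**Figure D4:**
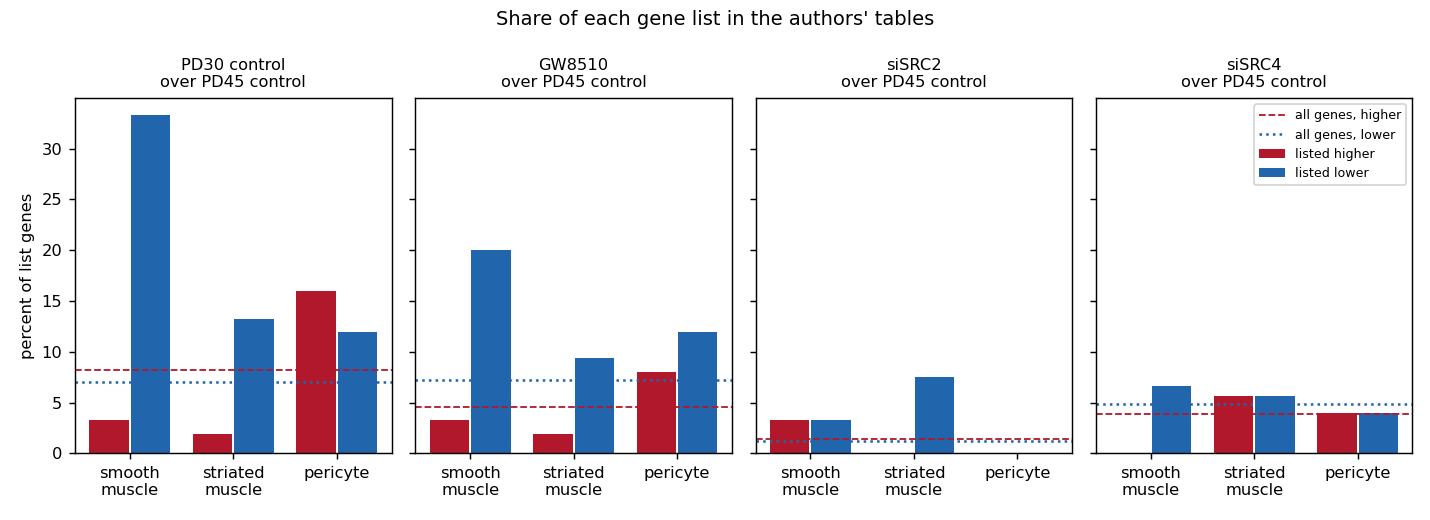
Percent of the genes of the smooth muscle, striated muscle and pericyte lists, members included, that the authors' tables list as higher or lower than the PD45 control (bars from 0), with the share of all tested genes as lines. The bars count all genes of a list, whether or not they were tested. At PD30, 33.3% of the smooth muscle genes and 13.2% of the striated muscle genes were listed lower, while 16.0% of the pericyte genes were listed higher and 12.0% lower.

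Of the 30 smooth muscle genes, 11 were listed at PD30, 10 lower (SVIL among them) and 1 higher, with a median log2 fold change of -0.83 over those listed, beside 0.64 over all genes listed for PD30. ITGA8, an integrin subunit of contractile cells, averaged 2.34 ± 0.0322 at PD30, 2.08 ± 0.129 with GW8510 and 4.39 ± 0.463 with siSRC4, against 11.04 ± 2.19 in the PD45 control. ACTA2, the smooth muscle actin of myofibroblasts, averaged 167 ± 19.4 at PD30 and 295 ± 24.8 in the PD45 control. CALD1, the actin-binding caldesmon, averaged 185 ± 6.50 at PD30 and 204 ± 18.0 with GW8510, against 368 ± 49.7 in the PD45 control. HSPB6 and SYNM were lower at PD30 too.

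The 1 smooth muscle gene higher at PD30 was MYOCD, which encodes myocardin, a coactivator of SRF at CArG boxes. MYOCD signal was 4.02, 5.54 and 5.56 at PD30 and 0.29, 0.29 and 0.38 with GW8510, against 0.89, 0.66 and 1.04 in the PD45 control. PD30 was above and GW8510 below the control in every library. With GW8510, 6 of the 30 smooth muscle genes were lower and 1 was higher, SYNPO2, which binds actin. SYNPO2 averaged 1.96 ± 0.365 with GW8510, 0.707 ± 0.0551 with siSRC2 and 0.647 ± 0.106 with siSRC4, against 1.17 ± 0.185 in the PD45 control. LPP, a LIM protein of focal adhesions, averaged 4.58 ± 0.807 with GW8510 and 15.8 ± 2.39 with siSRC2, against 6.99 ± 0.783 in the PD45 control. With siSRC4, 2 smooth muscle genes were listed, ITGA8 and SYNPO2, both lower.

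Of the 53 striated muscle genes, 7 were lower and 1 higher at PD30, 5 lower and 1 higher with GW8510, 4 lower and 0 higher with siSRC2, and 3 lower and 3 higher with siSRC4. ANKRD1 and LDB3 are counted in each of these. MYOZ2, a Z-disc protein that binds calcineurin and LDB3, averaged 0.15 ± 0.02 at PD30, 1.48 ± 0.343 with GW8510 and 1.35 ± 0.255 with siSRC2, against 3.45 ± 0.448 in the PD45 control. SYNPO2L, another Z-disc gene, averaged 0.21 ± 0.052 at PD30 and 0.497 ± 0.0404 with siSRC2, against 1.20 ± 0.318 in the PD45 control. NEXN, which binds actin filaments, averaged 29.9 ± 5.24 with GW8510 and 30.9 ± 6.08 with siSRC4, against 52.0 ± 5.12 in the PD45 control.

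The higher genes of the striated list included MYOZ3 at PD30, and TNNT1 beside ANKRD1 with siSRC4. TTN, at 0.0267 ± 0.00577 at PD30 and 0.167 ± 0.105 in the PD45 control, was listed at a very low signal. DMD, which encodes dystrophin, averaged 2.74 ± 0.186 at PD30 and 4.93 ± 0.456 with GW8510, against 7.47 ± 0.868 in the PD45 control. Its siSRC4 libraries read 5.23, 38.5 and 4.32, so the second stood far from the others, and the mean went against the sign of the -0.91 in the authors' deposited table. DMD was the 1 list gene that did not pass the limma re-test with siSRC4 (adjusted p = 0.575).

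The 25 pericyte markers were mixed. At PD30, 4 were higher (ANPEP, EDNRA, GUCY1B1 and NDUFA4L2) and 3 lower (RGS5, NOTCH3 and EBF1). NOTCH3, a receptor of mural cells, averaged 12.5 ± 1.88 at PD30 and 19.9 ± 1.49 in the PD45 control, while EDNRA, the endothelin A receptor, averaged 6.33 ± 0.0252 at PD30 and 3.73 ± 0.284 in the PD45 control. With GW8510, ABCC9 and KCNJ8 were higher, and RGS5, EBF1 and the transcription factor gene FOXC2 were lower. EBF1 read 0.34, 0.10 and 0.07 with GW8510 and overlapped the PD45 control, which averaged 0.33 ± 0.08. With siSRC4, ANPEP was higher and RGS5 lower, and with siSRC2 0 of 25 were listed.

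**Figure D5:**
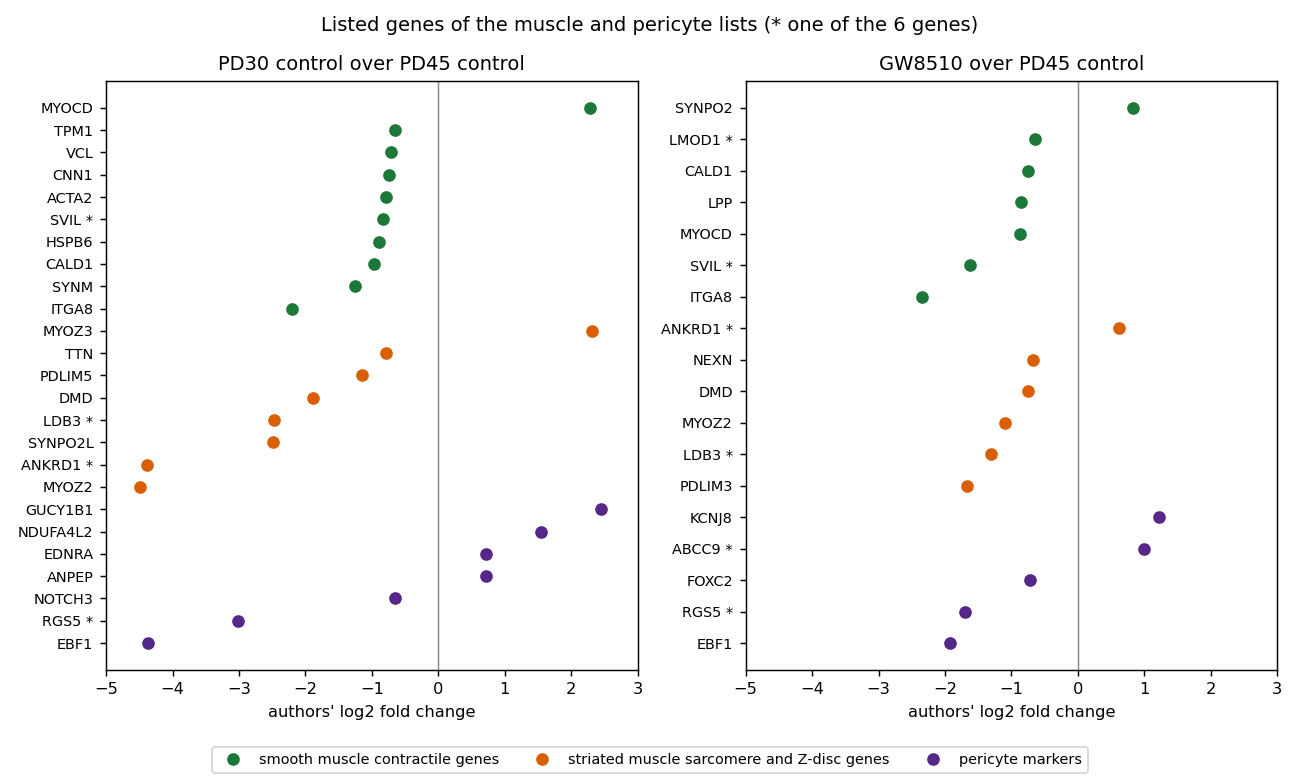
Log2 fold change in the authors' deposited table (horizontal axis) of listed genes of the 3 lists, 1 of them left out, at PD30 and with GW8510 over the PD45 control, coloured by list, with the 6 members starred. MYOCD lies to the right of 0 at PD30 and to the left with GW8510, and MYOZ2 and ANKRD1 lie farthest to the left among the striated muscle genes at PD30.

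Protein families of the members were followed as well, with the members, chosen from these values, among the counted genes. Of all tested genes, 7.07% were listed lower at PD30, 7.26% with GW8510, 1.26% with siSRC2 and 4.86% with siSRC4. Listed higher were 8.24% at PD30 and 4.59% with GW8510. Families of 7 or 8 genes are too small to be set against these shares. Of 7 PDZ-LIM genes of the LDB3 family, 3 were lower at PD30 (LDB3, PDLIM1 and PDLIM5) and 2 with GW8510 (LDB3 and PDLIM3), and LDB3 alone was listed with each siRNA. PDLIM5 averaged 12.9 ± 0.815 at PD30 and 25.1 ± 1.27 in the PD45 control. Of 7 tropomodulin and leiomodin genes, which cap or nucleate actin filaments, LMOD1 and TMOD1 were lower with GW8510, TMOD1 with siSRC4, and TMOD2 at PD30 and with siSRC2. TMOD1 averaged 5.28 ± 0.702 with GW8510 and 5.60 ± 0.1504 with siSRC4, against 10.49 ± 2.03 in the PD45 control. Of 8 villin and gelsolin genes, SVIL and GSN were lower at PD30, SVIL was lower with GW8510, and CAPG, a capping protein, was higher in both.

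ANKRD1 was also read against 22 genes used as targets of YAP and TEAD, itself among them. Of all tested genes, 7.07% were listed lower and 8.24% higher at PD30, and 7.26% and 4.59% with GW8510. With siSRC2 the shares were 1.26% lower and 1.38% higher, and with siSRC4 4.86% and 3.91%. At PD30, 5 of the 22 were lower (ANKRD1, TGFB2, CRIM1, LATS2 and GADD45A) and IGFBP3 was higher. TGFB2, a secreted growth factor, averaged 2.40 ± 0.670 at PD30 and 6.26 ± 0.394 in the PD45 control. With GW8510, 3 were higher (ANKRD1, IGFBP3 and FJX1) and 2 lower (NT5E and RBMS3). With siSRC2, F3, tissue factor of the clotting cascade, was higher at 347 ± 18.1, against 181 ± 20.7 in the PD45 control, and ANKRD1 was lower. With siSRC4, ANKRD1 was higher and PTPN14, an inhibitor of YAP, was lower.

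Genes with the most similar pattern to a member were ranked by Pearson r of log2(signal + 1) over the libraries of the tables that list the member, among genes listed in all of those tables. These values describe libraries that share the PD45 control, and they carry no p. For ANKRD1, over 15 libraries and 21 genes, the highest were PSG1 (r = 0.894), FABP3 (0.824) and ADIRF (0.750). For LDB3, over the same libraries, they were LCE2C (0.766), FABP3 (0.763) and PSG1 (0.734). PSG1 and LCE2C belong to families of near-identical copies, so their signal is uncertain. For SVIL, over 9 libraries and 526 genes, they were ELK3 (0.993), SLC20A1 (0.987) and VAT1L (0.985). For RGS5, over 12 libraries and 127 genes, they were PLCB4 (0.949), LRRN3 (0.932) and FLT1 (0.928). LMOD1 and ABCC9 are listed in 1 table each and were not ranked.

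Markers of other cell types moved in some of the same groups. Of all tested genes, 7.07% were listed lower at PD30, 7.26% with GW8510, 1.26% with siSRC2 and 4.86% with siSRC4. Listed higher were 8.24%, 4.59%, 1.38% and 3.91% in the same order. Marker lists this short give only rough shares beside these. Of 10 epithelial markers, 3 were lower at PD30 (KRT8, KRT18 and KRT19), 2 lower with siSRC2 (KRT19 and CLDN4) and 1 higher with GW8510 (KRT19). KRT19 signal was 32.45, 29.13 and 32.81 at PD30, 249.34, 251.46 and 203.75 with GW8510 and 73.27, 75.10 and 72.34 with siSRC2, against 122.71, 148.05 and 134.01 in the PD45 control. The listed epithelial markers summed to 50.8 to 56.5 at PD30 and 162 to 188 in the PD45 control. In those 3 groups ANKRD1 was listed in the direction of KRT19, and the part of these markers in that result was not tested.

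Of 10 endothelial markers, TEK and TIE1 were higher at PD30 and TEK with siSRC2, with sums of 29.3 to 31.9 at PD30 and 6.38 to 8.53 in the PD45 control. Of 10 blood cell markers, 1 was listed, CD68, lower with GW8510. Of the 14 fibroblast markers, 5 were higher and 1 lower at PD30, 1 higher and 2 lower with GW8510, 3 higher with siSRC2 and 1 lower with siSRC4. POSTN, a matrix protein of activated fibroblasts, averaged 11.1 ± 1.34 at PD30, 1.63 ± 0.317 with GW8510 and 2.41 ± 0.765 with siSRC4, against 5.46 ± 1.24 in the PD45 control. A marker at 0 in every library could not be listed, so the presence of these 4 cell types was not assessed. The part of these marker differences in the values of the members was not tested.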

How the data were processed

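RNA sequencing was deposited for 15 WI-38 libraries, with Trizol extraction and Illumina library preparation per the labels' protocols. Per the submitters' processing notes, tools were DESeq2, edgeR, RSEM, StringTie, HISAT2 and CASAVA, with no roles, and the build was GRCm38 of the mouse, while the gene identifiers are human. No coordinates were therefore taken from the tables. Per the file headers, the 4 tables the authors deposited hold a normalized signal per gene and library (TPM or FPKM is not stated), a fold ratio, a log2 fold change, and a p-value with its adjusted p-value. The listed genes reach an adjusted p of 0.05 and a fold of 1.5. Depth per library is unknown. Groups were taken from sample titles and treatment labels. Tables were matched to groups by library column names, which differ from the titles of the mean columns in both knockdown tables. The siSRC4 libraries stand beside mean and fold columns headed siSRC2, and the siSRC2 libraries beside columns headed siSRC.

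From the signals, means, SD (n = 3) and ratios of means were computed with Python 3.11.15, pandas 2.3.3 and numpy 2.4.6. The number of genes the authors tested was taken from the ratio of the adjusted p to the p of the first row. Listed genes whose mean signal reached 1 were fitted again, on log2(signal + 1), using limma (3.58.1, R 4.3.3) with the trend option, adjusted by Benjamini-Hochberg within a table. Differences on that scale understate low genes, and the re-test depends on the authors' selection. The re-test was tried on simulated data with equal spread for every gene and many genes unchanged. All genes here were selected as changed, so that trial does not show how the re-test performs on them. Since the labels do not call the replicates separate cultures, the p-values of the re-test reflect only how much these libraries vary, possibly for technical reasons.

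The 6 members and 14 gene lists (243 symbols, all 243 matched to an identifier, 231 distinct) were chosen with earlier results of these data known. The text names all members, all listed genes of a list where 8 or fewer were listed and otherwise the 8 with the largest log2 fold change, and the 3 genes most like a member, apart from a few genes that are not reported here. Promoters and gene neighbours are from RefSeq (GRCh38.p14), and exon overlaps from GENCODE. Replicate numbers were checked for pairing. With siSRC4 every same-numbered pair of libraries deviated together, but weakly (r = 0.122, 0.107 and 0.136). Only there did every pair pass the rule of r above 0.1, so pairs were counted for siSRC4 alone. For ANKRD1 the same-numbered libraries of GW8510 and siSRC2 are described beside that count. With siSRC2 the r were 0.089, 0.088 and 0.218, so the rule divides similar cases. Values this small do not settle whether the numbers pair the libraries.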

Additional observations from a re-analysis of the deposited data

Results flagged for a closer look

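The ANKRD1 signal moved in opposite directions with the siRNAs to SRC. Its log2 ratio to the PD45 control was -1.22 with siSRC2 and 0.66 with siSRC4, so siSRC2 minus siSRC4 was -1.88. All 3 siSRC2 libraries lay below the PD45 control mean of 7.28 and all 3 siSRC4 libraries above it, which is what drew attention to it. The difference was not tested. The siRNA names rest on the library columns, since the authors' fold column with the higher ANKRD1 value is headed siSRC2. The SRC signal itself was at 57.0% (siSRC2) and 54.6% (siSRC4) of the PD45 control.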

How the results depend on the processing

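For the 15 ratios of members to the PD45 control, 165 alternatives were computed (pseudocounts, geometric means, medians, the authors' log2 fold change and leaving out each library). All 165 kept the sign and 162 stayed within 1 SD. The others were ANKRD1 at PD30 with a pseudocount of 1 (-2.62), ABCC9 with GW8510 with a pseudocount of 1 (0.66) and LMOD1 with GW8510 by the authors' log2 fold change (-0.65). The SD is a loose measure, since it can exceed the log2 ratio itself (0.48 with an SD of 0.67 for ANKRD1 with GW8510). The alternatives also reuse the same libraries from which the members were chosen. Leaving out 1 library moved no member's ratio by over 1.5 times, the most being LDB3 at PD30, 1.43 times without the third PD30 library.

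Among the 102 non-member list genes, at a fold of at least 2, 8 were lower and 4 higher at PD30, 4 lower and 1 higher with GW8510, 2 lower and 0 higher with siSRC2, and 1 lower and 1 higher with siSRC4. With a mean signal of at least 1, and likewise by the limma re-test, 12 were lower and 3 higher at PD30, 7 lower and 2 higher with GW8510, and 1 lower and 1 higher with siSRC2. With siSRC4, 3 were lower and 2 higher at that mean signal, and 2 lower and 2 higher by the re-test. These alternatives test fewer genes by their construction. With no filter on low signal, 4 list genes passed the re-test with siSRC2, where 2 entered and passed with the filter. With Spearman rho, 1 of the 3 genes named as most like ANKRD1 remained and 0 of the 3 for SVIL. The cause was not tested.

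With a replicate block, 2198 listed genes passed the re-test at PD30 (2197 without it), 1552 with GW8510 (1551), 302 with siSRC2 (296) and 1122 with siSRC4 (1096), and as many list genes passed in each as without the block. With siSRC2, as with siSRC4, every library correlated best with its own number, a hint from the data and not from the design. Depth is unknown, so what was too low to be measured cannot be said, and genes outside the tables were not used here.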
